A study of Mus musculus with 99 samples.

Results

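The CaBP, NECAB and NCS families of neuronal calcium sensors were followed in single mouse cochlear hair cells through 10 genes: Cabp1, Cabp2, Cabp4, Cabp5, Cabp7, Necab1, Necab2, Necab3, Ncs1 and Hpca. They were taken by gene symbol, 10 of the 55291 genes in the count table, and all 10 had a row. The study sequenced full-length cDNA of 99 hand-picked, tdTomato-positive cells of C57BL/6 cochleae. The first group was 32 wild-type outer hair cells (OHCs) of postnatal day 30 with the genotype Slc26a5-CreER/+; Ai9/+. The second was 67 cells of postnatal day 42 from Slc26a5-CreER/+; Rosa26Tbx2/+ mice, called converted inner hair cells (cIHCs): OHCs that express ectopic Tbx2 and take on inner hair cell (IHC) features. Both groups carried the inducible Cre driven from Slc26a5, the OHC motor protein gene, and age and genotype differed together between them. The titles list no endogenous IHC for comparison, whereas the protocol text, shared by all samples, speaks of picked IHCs and iOHCs. The titles were followed here, and the age at Cre induction is not given in the sources used here.

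CaBPs are calmodulin-like EF-hand proteins. They compete with calmodulin on voltage-gated calcium channels, and in this way slow the calcium-dependent closing of the Cav1.3 channels that drive transmitter release at the IHC ribbon synapse. CABP2 is a human deafness gene, and its loss in mice increases the inactivation of IHC calcium channels. NECABs are neuronal EF-hand proteins that bind receptors and adaptor proteins, and NCS1 and hippocalcin (Hpca) are myristoylated sensors of neurons that move to membranes or meet their targets when calcium rises.

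The labels name no animal for any cell, so each group counted as 1 sample and no difference was tested. Levels are a gene's counts summed over a group's cells and scaled to counts per 1000000 (CPM), and each difference is the log2 of the cIHC level divided by the OHC level. Intervals are 95% and cover counting error only, and reads amplified by PCR without molecular identifiers are not independent molecules. Cells had 4677682 to 13792672 counts, and the median number of genes with reads was 6068.5 in OHCs and 8546 in cIHCs. Tbx2 had 3 counts over all OHCs and 112.7 to 2643 CPM in the cIHCs. The summed level of the 6 OHC markers was 50928 CPM in OHCs against 302 CPM in cIHCs, and that of the 6 IHC markers (Slc17a8, Otof, Calb2, Atp2a3, Slc7a14, Shtn1) was 1527 against 9828 CPM. Sex-linked reads differed between the groups: 24 of 32 OHCs and 12 of 67 cIHCs had Y-linked reads at 10 CPM or more, and 4 OHCs and 55 cIHCs had Xist at that level.

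Cabp1 and Cabp2 were higher and Necab2 lower in cIHCs, each by at least 2-fold and in many cells. Their upstream windows are shown because the 2 groups differ in a T-box transcription factor, Tbx2, and because these windows hold no annotated exon base. Each is the 250 bases before the RefSeq start, on GRCm38.p6 (the mm10 build), written 5′ to 3′ on the gene's strand. They are chr5:115194382-115194631 on the minus strand for Cabp1, chr19:4082238-4082487 on the plus strand for Cabp2 and chr8:119446469-119446718 on the plus strand for Necab2. In GENCODE M21 the Cabp2 window lies inside the gene, in an intron, because that annotation has a start farther upstream, and the other windows lie just before their genes. Capitals mark matches, on either strand, to the T-box core AGGTGT or to the E-box CAGNTG, the type bound by Atoh1.
Cabp1: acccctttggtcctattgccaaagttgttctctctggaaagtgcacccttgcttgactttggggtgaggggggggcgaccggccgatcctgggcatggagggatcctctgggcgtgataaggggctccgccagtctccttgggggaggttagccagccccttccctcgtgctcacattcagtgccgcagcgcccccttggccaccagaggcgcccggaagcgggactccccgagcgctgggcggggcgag
Cabp2: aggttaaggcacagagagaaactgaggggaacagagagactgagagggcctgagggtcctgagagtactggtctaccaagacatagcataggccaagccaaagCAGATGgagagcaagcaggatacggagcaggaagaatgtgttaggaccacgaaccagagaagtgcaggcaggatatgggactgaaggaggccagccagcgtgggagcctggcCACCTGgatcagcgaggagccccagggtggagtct
Necab2: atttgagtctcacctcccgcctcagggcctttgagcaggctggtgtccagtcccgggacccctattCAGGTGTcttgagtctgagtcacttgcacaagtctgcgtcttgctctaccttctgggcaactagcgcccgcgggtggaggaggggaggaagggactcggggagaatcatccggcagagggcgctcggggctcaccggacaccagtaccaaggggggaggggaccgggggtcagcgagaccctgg

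The Necab2 window held 1 T-box core, which starts 183 bases before the gene's start and overlaps an E-box that starts at base -184. The Cabp2 window held an E-box at base -147 and another, read on the opposite strand, at base -35. The Cabp1 window held no match to either motif. Of 32841 such windows over all genes of the RefSeq table, 11.8% held AGGTGT and 44.8% held CAGNTG, so these matches are common and describe letters only. The full T-box AGGTGTGA (1.1% of windows) and the TATA box TATAAA (12.4%) were in none of the 13 windows of the 8 members in that table.

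Cabp2 (chr19:4081578-4087340, plus strand, GENCODE M21 on GRCm38), a calcium sensor of the IHC synapse, was the most abundant member and had reads in all 99 cells. Its level was 194 (lowest), 953 (median) and 1768 CPM (highest) in OHCs, and 868, 2616 and 4741 CPM in cIHCs. The groups overlapped, but 57 of 67 cIHCs were above the highest OHC and 15 of 32 OHCs were below the lowest cIHC. Of the 2144 ways to pair a cIHC with an OHC, 96.3% had more Cabp2 in the cIHC. The pooled level was 1018 CPM in OHCs (1014 to 1022) and 2643 CPM in cIHCs (2638 to 2647), a log2 ratio of 1.38 (1.37 to 1.38). Over all alternative settings the ratio lay between 1.09 and 1.46. Cells were more alike in Cabp2 among cIHCs, with a coefficient of variation of 28.8% against 46.7% among OHCs. Cabp2 ranked 80 of all genes by pooled CPM in OHCs and 27 in cIHCs.

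Cacna1d, which encodes the pore of the Cav1.3 channel on which CaBP2 acts, lay on the other side. Pooled, OHCs had 706 CPM and cIHCs 311 CPM of it, and the log2 ratio was -1.18. Counts of Cabp2 per count of Cacna1d were 0.282, 1.29 and 9.50 (lowest, median, highest cell) in OHCs and 2.03, 8.86 and 534 in cIHCs. The value of 534 came from 1 cell, cIHC 65, with the lowest Cacna1d of any cIHC (4.50 CPM) and 2405 CPM of Cabp2. The pooled ratio was 1.44 in OHCs and 8.51 in cIHCs, and 30 cIHCs were above the highest OHC. In 93.5% of pairs the cIHC had the higher ratio. This ratio compares read counts of genes of different length, so its size does not give a number of molecules.

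Cabp1, which encodes CaBP1 and its longer splice form caldendrin, was read as a single count in 1 OHC. In cIHCs it had 7266 counts and reads in 34 of 67 cells, with 0, 0.110 and 146 CPM in the lowest, median and highest cell. At 10 CPM or more it stood in 22 cIHCs and 0 OHCs. The pooled levels were 0.00413 CPM (0.000105 to 0.0230) and 13.4 CPM (13.1 to 13.7), with a log2 ratio of 11.66 and a counting interval of 9.18 to 16.96. With the OHC sum set to 3 counts it was 10.07, and over the alternatives that value lay between 7.15 (cells with Xist only) and 10.10. The cIHCs with Xist had 14.7 CPM and those with Y-linked reads 5.48 CPM. Thinning every cell to 5770000 reads left the shares of cells with reads at 1 of 29 OHCs (3.45%) and 33 of 66 cIHCs, against 3.12% and 50.7% at full depth. The highest cIHC held 13.4% of the counts. Cabp1 (chr5:115168689-115194381, minus strand) shares no exon base with another gene there.

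Cabp4, known for photoreceptor synapses and also present in hair cells, had pooled levels of 21.6 CPM in OHCs and 28.5 CPM in cIHCs and was read in a larger share of the cIHCs. OHCs had 0, 0 and 125 CPM and cIHCs 0, 21.1 and 107 CPM in the lowest, median and highest cell, so the ranges overlapped throughout. Reads were found in 12 of 32 OHCs (37.5%, 21.1 to 56.3) and in 46 of 67 cIHCs (68.7%, 56.2 to 79.4), and 9 and 38 cells reached 10 CPM. The log2 ratio was 0.40 (0.35 to 0.44), and that value depended on the cells used. All 12 OHCs with Cabp4 reads were among the 24 with Y-linked reads, and the other 8 OHCs had none. Within cells with Y-linked reads the log2 ratio was -0.54, and within cells with Xist, where the 4 OHCs had no read, it was at least 8.17. In thinned cells it was 1.03, and the 3 OHCs too shallow for thinning held 37.7% of the OHC counts. Its exons share 131 bases (3.7%) with Gpr152 on the opposite strand, and whether the counting used strand is not given in the sources used here.

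Cabp7, which encodes a membrane-anchored member also called calneuron 2, had the same shape with fewer OHCs. OHCs had 0, 0 and 224 CPM and cIHCs 0, 0.724 and 145 CPM in the lowest, median and highest cell. Reads were found in 3 of 32 OHCs (9.38%, 1.98 to 25.0) and 36 of 67 cIHCs (53.7%, 41.1 to 66), and 2 and 28 cells reached 10 CPM. The highest OHC held 54% of the OHC counts. The pooled levels were 10.8 and 21 CPM, a log2 ratio of 0.97 (0.90 to 1.03), just under 2-fold. Without the highest cell of each group it was 1.91, and without the cells that had supporting cell or glia markers (6 OHCs, 10 cIHCs) it was 1.86. In cells with Xist the ratio had the other sign, -1.31, with all reads of the 4 OHCs in 1 cell. In cells with Y-linked reads it was 10.78, with the sum of 2 counts in 24 OHCs set to 3. Its exons share 338 bases (12.9%) with Zmat5 on the opposite strand.

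Cabp5, a CaBP of the retina, was absent from OHC reads and found in 1 cIHC with 464 counts (48.3 CPM). For a share seen in 0 of 32 OHCs the limit is 3 of 32 (9.38%), or 10.9% by the exact interval. The pooled log2 ratio was at least 6.10 against a floor of 3 counts over the OHC group, and it rested on that 1 cell.

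Necab2, which in neurons binds metabotropic glutamate and adenosine receptors, had the reverse pattern and was the only member at least 2-fold lower in cIHCs. OHCs had 0, 144 and 769 CPM in the lowest, median and highest cell, with reads in 28 of 32 cells and 10 CPM or more in 21. No cIHC had a read, and the limit for a share seen in 0 of 67 cells is 3 of 67 (4.48%), or 5.36% by the exact interval. The pooled level in OHCs was 218 CPM (216 to 220.2) and the log2 ratio was at most -15.27 against a floor of 3 counts over the cIHC group. Over the alternatives that bound lay between -15.90 and -12.29. Necab2 (chr8:119446719-119472640, plus strand) shares no exon base with another gene. Among the 10041 genes that reached 10 CPM in OHCs, cIHCs or both, its ratio stood at percentile 0.0199.

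The 4 OHCs without a Necab2 read were cells 9, 15, 19 and 29. Each had the OHC motor gene Slc26a5, at 1626 to 2535 CPM, no Tbx2 read and no Slc17a8 read, and 5379 to 6227 genes with reads. Across the 32 OHCs Necab2 had a Spearman rho of 0.63 with the number of genes with reads, a description of cells that share a library type. Whether the number of genes per cell has a part in the level of Necab2 was not tested.

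Necab3, a relative that binds adaptor proteins of the Mint family, had no read in OHCs and 897 counts in 2 cIHCs, at 52.2 and 75.3 CPM. Its log2 ratio was at least 7.06, carried by those 2 cells. Necab1 had 1 count in all 99 cells and no ratio. Of the 3 NECAB genes, only Necab2 had reads in most cells of a group.

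Ncs1, the mammalian form of frequenin, had no read in any of the 99 cells. The annotated exons of Ncs1 (4653 bases, chr2:31245823-31295989) overlap no other gene, and no older symbol of the gene was in the table. Whether the authors' counting left the gene out cannot be told from the table. The 0 is therefore not a measured absence, and no limit on the share of cells is drawn from it. Hpca had 167 counts in 4 cIHCs and none in OHCs, a log2 ratio of at least 4.63, and 98.2% of the counts were in 1 cIHC at 21.6 CPM. Its exons share 57 bases with Tmem54 on the opposite strand.

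**Figure D1:**
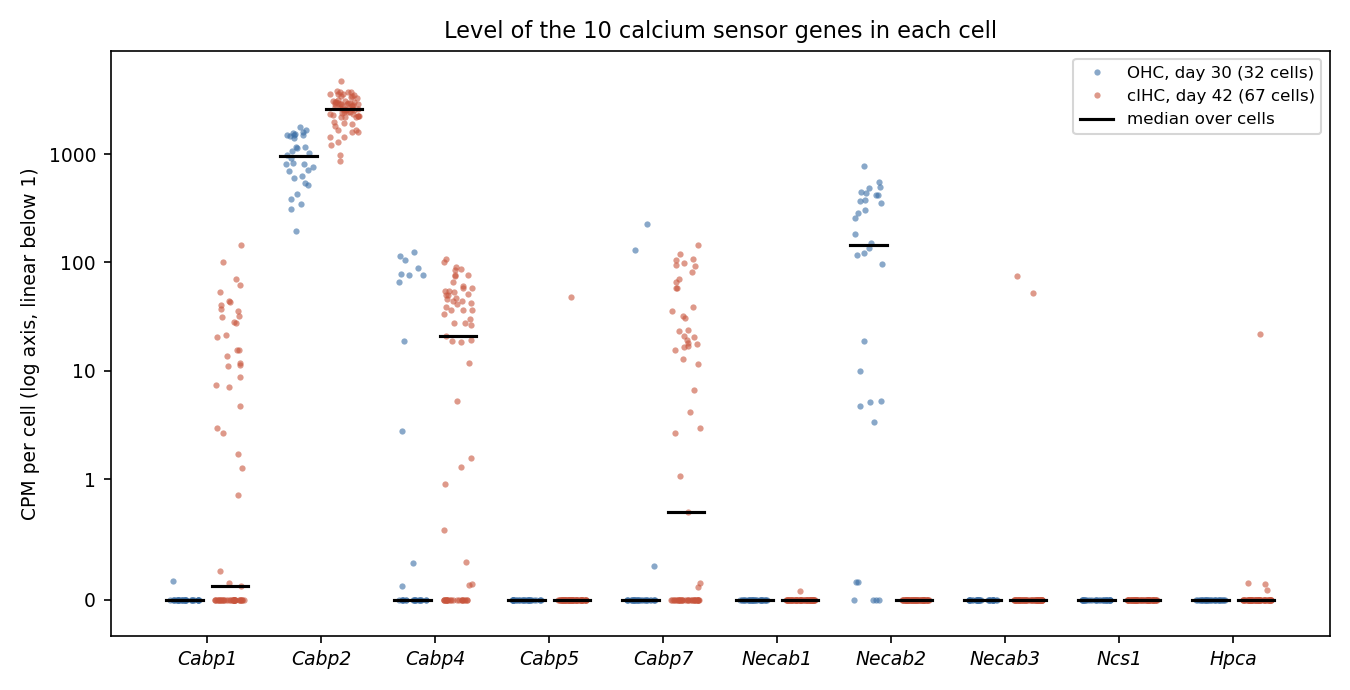
Level of each of the 10 genes in every cell (CPM, log axis that is linear below 1). Blue points are the 32 OHCs, red points the 67 cIHCs and black lines medians over cells. Cabp2 lies at 194 CPM or more in all cells, Necab2 has points above 0 in OHCs only, and Cabp1 reaches 10 CPM in cIHCs only.

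Set side by side per kilobase of exon, the order of the genes differed between the groups. In OHCs pooled levels were 754 CPM per kilobase for Cabp2, 104 for Necab2, 6.13 for Cabp4, 4.10 for Cabp7 and 0.000708 for Cabp1. In cIHCs they were 1957 for Cabp2, 8.09 for Cabp4, 8.0 for Cabp7, 2.29 for Cabp1, 0.647 for Necab3, 0.338 for Cabp5 and 0.105 for Hpca. Cabp4 and Cabp7 in both groups stood closer to each other than their spread over cells. The 2 neighbours Cabp2 and Cabp4 on chromosome 19, 48082 bases apart with 4 annotated genes between them, differed in level by far more than that spread.

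Counted over the family, 8 of 10 members had a ratio, and 5 were at least 2-fold higher in cIHCs (Cabp1, Cabp2, Cabp5, Necab3 and Hpca), where 42.0% of the 23306 genes with a ratio were. Necab2 alone was at least 2-fold lower, where 18.8% of genes were, and Cabp4 and Cabp7 lay between. The median log2 ratio of the 8 was 3.00, with Cabp1 and the genes without reads at their 3-count bound, and that of all genes with a ratio was 0.56. Cabp5, Necab3 and Hpca, 3 of the 5 higher genes, were read in only 1, 2 and 4 cIHCs. Of the 5 members that reached 10 CPM in OHCs, cIHCs or both, 2 were higher (26.3% of 10041 such genes) and 1 lower (14.3%), with a median of 0.97 against 0.25 for all such genes. Counts of this size are near those background shares.

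**Figure D2:**
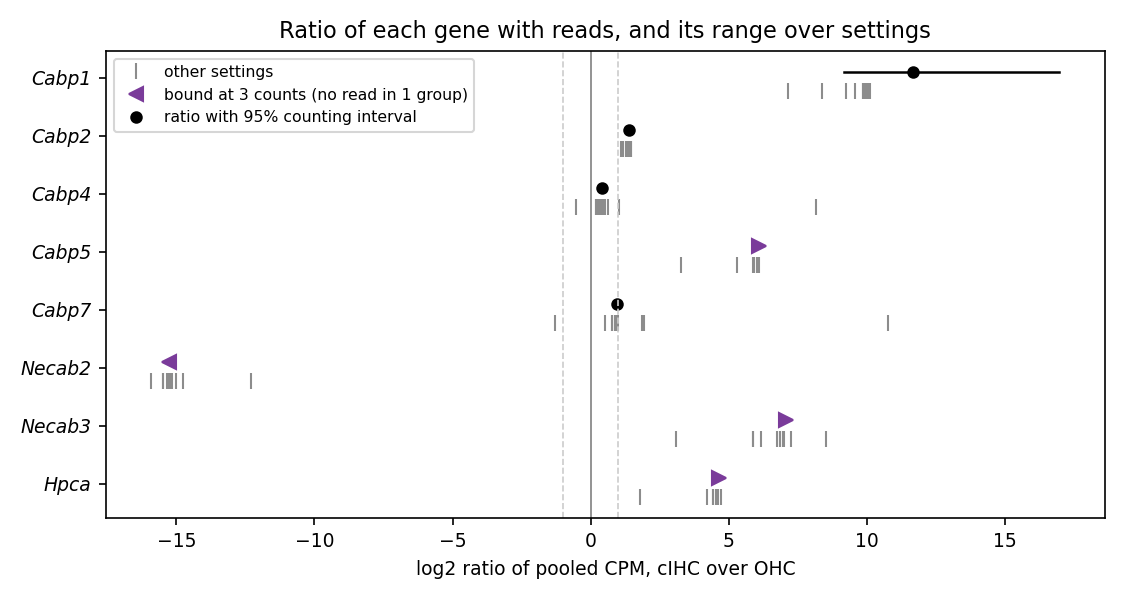
Log2 ratio of pooled CPM, cIHC over OHC, for the 8 genes with a ratio. Black points are ratios with their 95% counting interval, triangles are bounds at 3 counts and dashed lines mark 2-fold. Grey ticks are the values under the other settings, with sums under 3 counts set to 3, as for the single OHC count of Cabp1. Cabp2 stays right of the 2-fold line in all settings and Necab2 left of it, while Cabp4 and Cabp7 have settings on both sides of 0.

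Most members were read in some cells of a group and not in others. At 10 CPM or more, 8 OHCs had 1 member, 16 had 2 and 8 had 3, while 9 cIHCs had 1, 32 had 2, 18 had 3 and 8 had 4. Cabp2 was in every one of these cells. In OHCs the member most often found beside it was Necab2, with both in 21 of 32 cells. In cIHCs it was found with Cabp1, Cabp4 and Cabp7, of which 33 cells had 1, 17 had 2, 7 had all 3 and 10 had none. No OHC had more than 1 of these 3 genes, but Cabp1 reached 10 CPM in 0, Cabp7 in 2 and Cabp4 in 9 of 32 OHCs. Little overlap was possible at these counts, so the lack of it shows no difference in co-occurrence.

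Patchy reads were common among genes of these levels. Of 921 genes with pooled levels in both groups within 1.5-fold of those of Cabp4, the median share of cells with reads was 34.4% in OHCs and 61.2% in cIHCs, near the values of Cabp4. For Cabp7, 671 such genes had a median share of 21.9% in OHCs, above its 9.38%, and 52.2% in cIHCs. For Cabp1, 223 genes with like levels had a median share of 31.3% in cIHCs (5th to 95th percentile 16.6 to 52.2%), so its 50.7% was toward the upper end for its level.

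**Figure D3:**
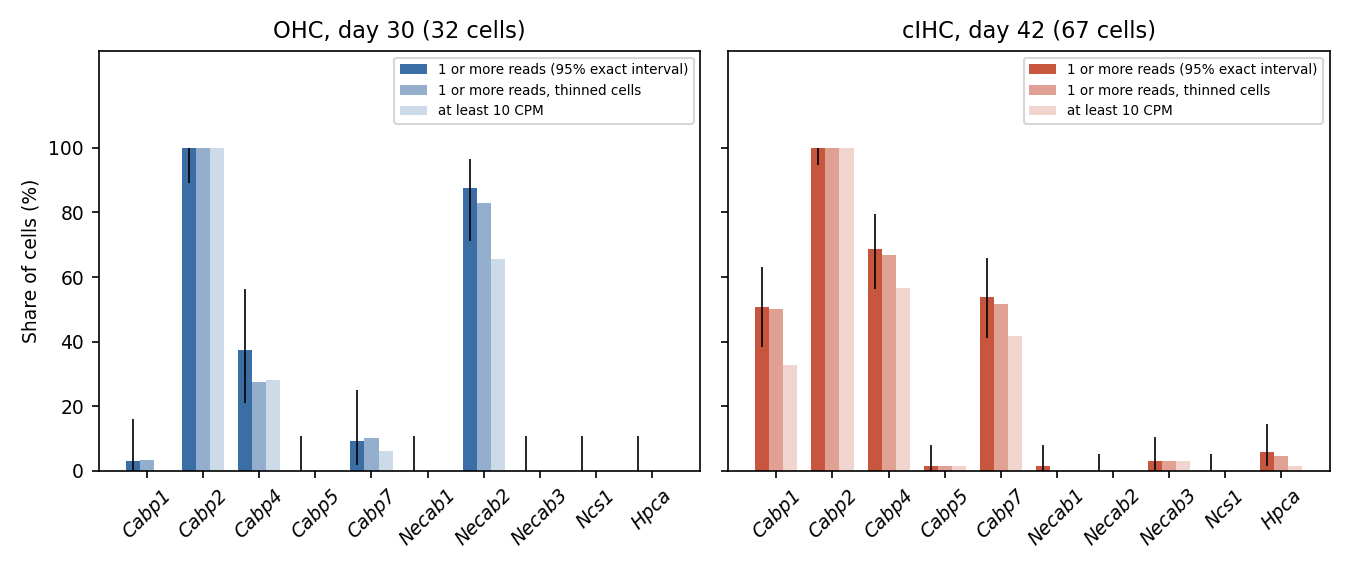
Share of cells, in percent, with 1 or more reads of each gene (dark, with exact 95% interval), with reads after thinning to equal depth (middle) and at 10 CPM or more (light). The left panel shows OHCs and the right panel cIHCs. Cabp1 and Cabp7 stand at 50.7% and 53.7% in cIHCs and at 3.12% and 9.38% in OHCs, and Necab2 stands in OHCs only.

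Within the cIHCs, Cabp1 and Cabp7 tended to be found in the same cells. At 10 CPM, 14 of 67 cells had both, 8 had Cabp1 only, 14 had Cabp7 only and 31 had neither, and Spearman's rho of the 2 levels was 0.42. Cabp1 and Cabp4 had a rho of -0.17 and Cabp4 and Cabp7 of -0.02. Cabp1 was higher in cells with more Calb2, the calcium buffer calretinin (rho 0.58), and lower in cells with more Tbx2 (rho -0.51). Calb2 and Tbx2 themselves had a rho of -0.38 in these cells, so the 2 relations are not separate. Over the 10307 genes with reads in at least 30% of cIHCs, the 5th to 95th percentiles of rho were -0.32 to 0.25 with Calb2 and -0.27 to 0.31 with Tbx2. Cabp1 had a rho of 0.37 with the OHC calcium buffer gene Ocm and of 0.38 with Otof, the release sensor otoferlin.

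Cabp7 followed Otof (rho 0.51) and Calb2 (0.49). Its rho with Tbx2 was -0.26, within the 5th to 95th percentiles over all 10307 genes (-0.27 to 0.31). Cabp2 followed Otof (0.52), with a rho of 0.15 for Calb2 and -0.08 for Tbx2. Over the same genes the 5th to 95th percentiles of rho with Otof were -0.31 to 0.28. All of these are descriptions over 67 cells that share their group, their library type and an unknown number of animals. In the 55 cIHCs with Xist the rho of Cabp1 was -0.51 with Tbx2, 0.64 with Calb2 and 0.49 with Cabp7, and in the 12 with Y-linked reads it was -0.39, 0.25 and 0.00. Thinned to equal depth, 66 cIHCs gave -0.50, 0.59 and 0.46. Cabp1 had a rho of -0.21 with the number of genes with reads.

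**Figure D4:**
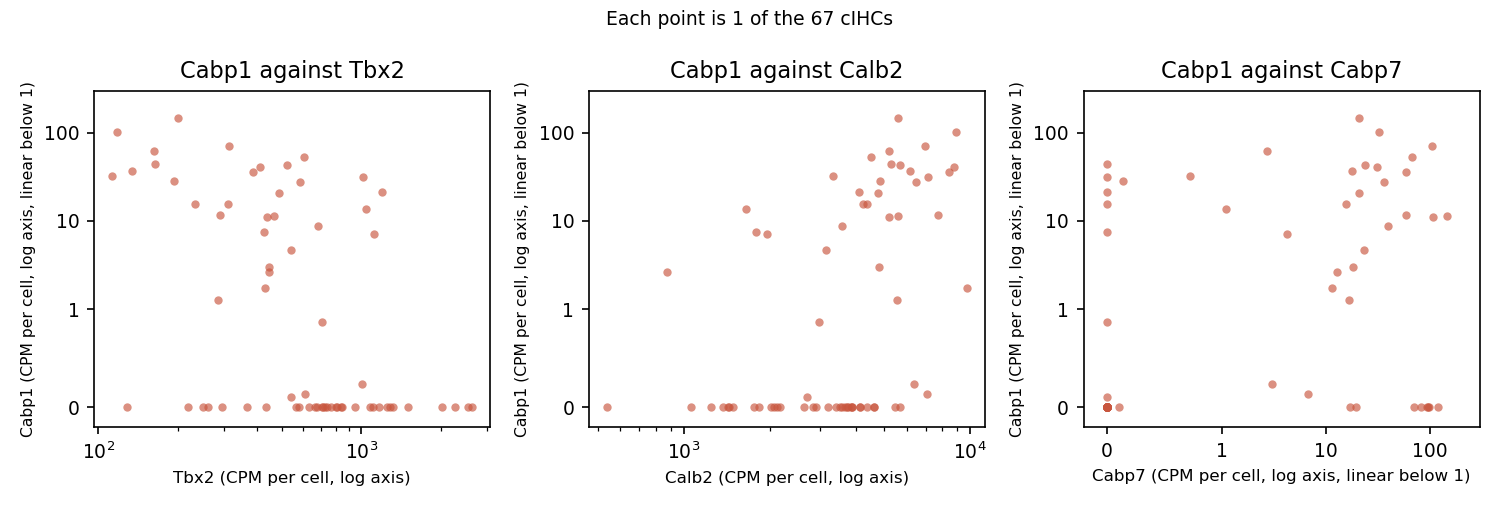
Cabp1 level (CPM, log axis that is linear below 1) against Tbx2, Calb2 and Cabp7 in the 67 cIHCs, 1 point a cell. The 33 cells without a Cabp1 read lie along the bottom. Cells with high Cabp1 lie mostly at lower Tbx2 and higher Calb2, with rho of -0.51 and 0.58.

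The genes whose levels across cells were most like those of a member were sought for members that reached 50 CPM in a group and had reads in 75% of its cells or more. Cabp2 in OHCs (32 cells, 2343 genes compared) was most like Psmc5 (rho 0.59), Vamp8 (0.57) and Ccdc47 (0.55). In cIHCs (67 cells, 3937 genes) it was most like Gm30191 (0.65), Tmem238 (0.53) and Camk2b (0.53). Necab2 in OHCs was most like Ywhae (0.74), Smurf1 (0.74) and Rabl6 (0.56). The 5th to 95th percentiles over all genes compared were -0.29 to 0.31, -0.26 to 0.27 and -0.27 to 0.33.

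Related calcium sensors (15 genes) set the members in context. Of 11 with a ratio, 3 were at least 2-fold higher in cIHCs, 3 lower and 5 between, beside 42.0% higher and 18.8% lower of all genes with a ratio. Calm2 and Calm3 encode calmodulin, the sensor that CaBPs displace. Calm2 had 7614 and 10222 CPM and Calm3 372 and 425 CPM in OHCs and cIHCs, log2 ratios of 0.42 and 0.19. These are near the median of 0.25 over the 10041 genes that reached 10 CPM in OHCs, cIHCs or both. Median-of-ratios scaling moves that median by -0.20, so Calm3 changes sign there. The ratio of Cabp2, 1.38, was higher than that of Calm2 and of Calm3. Caln1 (calneuron 1) had no read in OHCs and 20.4 CPM in cIHCs, with reads in 27 of 67 cells. Ncald (neurocalcin delta), a visinin-like sensor, had 24.1 and 110.1 CPM, with reads in 14 of 32 OHCs and 63 of 67 cIHCs, a log2 ratio of 2.19. Kcnip3 (calsenilin) had 61.8 and 96.0 CPM, a log2 ratio of 0.64, and Hpcal1 15.1 and 10.2 CPM, a log2 ratio of -0.57. Guca1b (higher) and Hpcal4, Kcnip2 and Kcnip4 (lower) complete these counts, were under 10 CPM in both groups and were named after their values were seen.

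The channels, receptors and partners of the members (19 genes) gave 15 ratios, of which 9 were at least 2-fold higher, 2 lower and 4 between, beside 42.0% higher and 18.8% lower of all genes with a ratio. Their median was 1.39, and that of all genes with a ratio was 0.56. Besides Cacna1d the lower one was Cacna1c, with 7.82 CPM in OHCs and 1.99 CPM in cIHCs, named to complete the count. Cacnb2, an auxiliary subunit of hair cell calcium channels, had 21.6 and 56.4 CPM in OHCs and cIHCs, with reads in 16 of 32 and 66 of 67 cells, a log2 ratio of 1.39. Cacnb2 and Cacna1d thus differed in opposite directions. Inositol trisphosphate receptors, which CaBP1 can bind, were low: Itpr1 had 0.145 and 13.0 CPM with reads in 18 of 67 cIHCs, Itpr2 0.471 and 3.70 CPM, and Itpr3 a single count in all. Pi4kb and Ric8a, partners of NCS1, had 51.6 and 79.6 CPM and 44.3 and 68.5 CPM, a log2 ratio of 0.63 each. Ric8b had 31.1 and 29.5 CPM, a log2 ratio of -0.08. Unc119, a lipid-binding trafficking protein that binds CaBP4, had 19.2 and 138 CPM, with reads in 7 of 32 OHCs and 63 of 67 cIHCs, a log2 ratio of 2.84. Syt1 (synaptotagmin 1), a partner of Necab1, had 1 count in OHCs and 21.1 CPM in cIHCs, with reads in 24 of 67 cells.

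**Figure D5:**
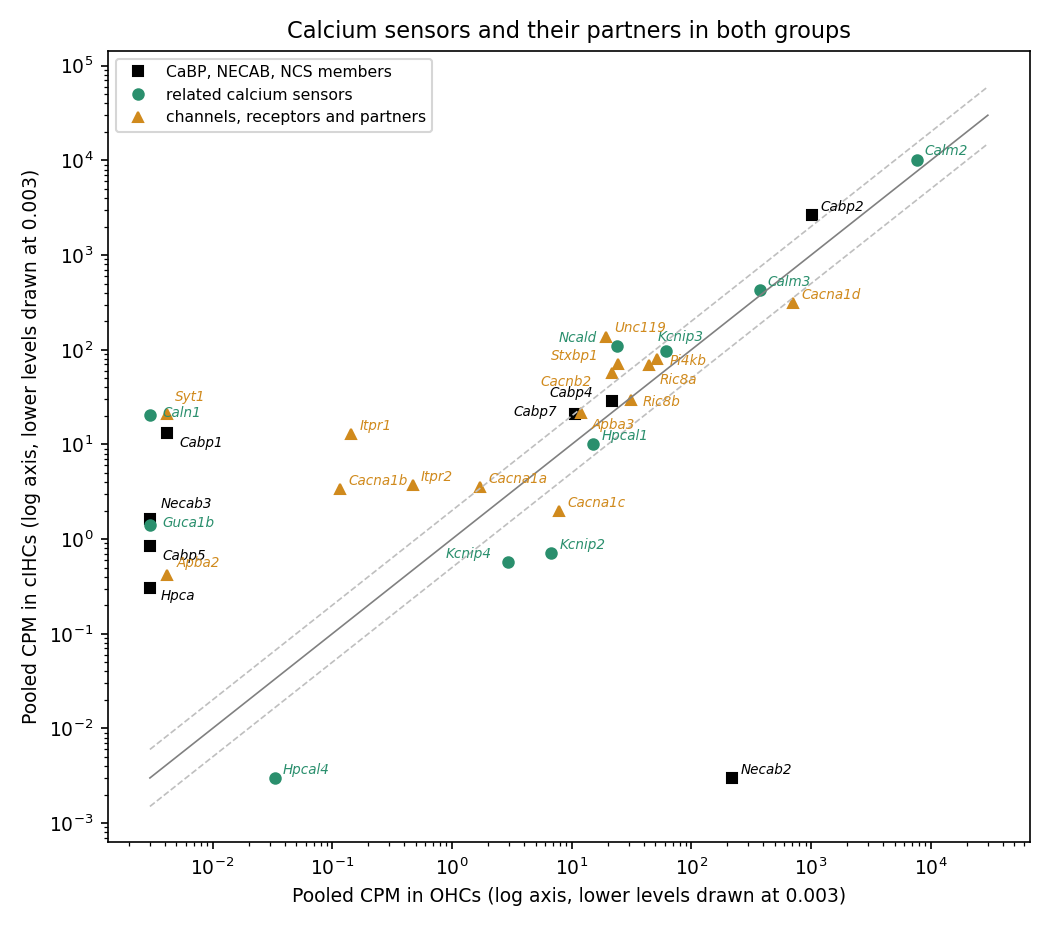
Pooled CPM in OHCs against pooled CPM in cIHCs (both log axes, levels of 0 drawn at the edge) for the members and for related sensors and partners with more than 3 counts in a group. The solid line marks equal levels and the dashed lines 2-fold. Necab2 lies alone at the lower right, with 218 CPM in OHCs and no read in cIHCs, and Cabp1 lies near Caln1 and Syt1 at the left.

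Markers of other cochlear cells were measured beside these genes. The 8 supporting cell markers had a summed level of 30.9 CPM in OHCs and 22 CPM in cIHCs, with a median over cells of 0 and highest cells of 897 and 873 CPM, and the 5 glia markers had 13.7 and 8.23 CPM. The 8 spiral ganglion neuron markers had 77.6 CPM in OHCs (0 to 386 per cell) and 312 CPM in cIHCs (21.2 to 750.0 per cell), mostly from Nefl and Nefm. The neuronal markers Prph, Gap43 and Thy1 had no read in any cell, and the other 5 were each at least 2-fold higher in cIHCs. Among those 5, the log2 ratio of Mapt was 1.28, with reads in 8 of 32 OHCs and 21 of 67 cIHCs. Stmn2, read in 2 cells of each group, stood at 3.95, and Nefh, read in 4 cIHCs and no OHC, at 4.69 or more. The 8 blood and macrophage markers had 3.43 and 53 CPM (up to 67.0 and 337 per cell). In cIHCs most of this was C1qb (48.2 CPM), which had no read in OHCs. In OHCs most came from the globin genes Hba-a1 (2.40 CPM) and Hbb-bs (0.744 CPM). C1qa had no read in any cell. The part of the neuron, blood and macrophage markers in the higher levels of Cabp1, Cabp2 and Cabp7 was not tested. Without the 6 OHCs and 10 cIHCs that had supporting cell or glia markers at 50 CPM or more, the log2 ratio of Cabp2 was 1.28.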

How the data were processed

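Single-cell full-length cDNA was made with the Smart-Seq HT kit and tagmented, per the labels' protocols, from 32 OHCs and 67 cIHCs. The authors deposited 1 table of whole-number read counts for 55291 gene symbols and 99 cells, and 0 columns belonged to no sample. The submitters' processing notes name HISAT2 2.2.1, StringTie 2.2.1, featureCounts 2.0.1 and mm10, with no role or order. The annotation and the strand setting are not given in the sources used here. That the values are raw counts was judged from the values.

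Columns were matched to cells by title. All cells were used, and no doublet filter was applied because cells were picked singly. Cells of a group were compared in pairs for libraries entered more than once, and 0 pairs were identical. Since no label names an animal, each group was taken as 1 sample: counts were added up over its cells and scaled to CPM (counts per 1000000). A gene with 3 counts or fewer in each group had no ratio. A group sum of 0 was replaced by 3 counts. In ranks, counts, medians and alternative settings so were sums of 1 or 2, except on per-cell medians, where no floor was used. Intervals are exact Poisson (levels), exact conditional binomial (ratios) and exact Clopper-Pearson (shares), at 95%. Where 0 of n cells had a read, the limits given are 3 of n and the exact upper limit. They concern a wider population of such cells and treat cells as independent draws. Shares were recomputed after thinning cells to 5770000 reads (29 OHCs, 66 cIHCs). Total counts per cell were 5656512 to 9287413 in OHCs and 4677682 to 13792672 in cIHCs.

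Exon overlaps and lengths came from GENCODE M21, which holds 96.4% of the symbols, and upstream windows from a RefSeq table of GRCm38.p6 that holds 8 of the members. Motifs were searched on both strands.

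All members are named. Of the 2 related lists, those named are the 3 genes with the largest ratio in each direction among genes of at least 10 CPM, plus Calm2, Calm3, Cacna1d, Cacnb2, Itpr genes, Pi4kb and Ric8a. A value for 1 gene of these lists is part of its count but is not reported here. The members and lists were chosen with earlier results of these data known. The alternatives tried were per-cell CPM averaged or its median taken, leaving out each gene's highest cell, TMM and median-of-ratios scaling, totals without mitochondrial or the 10 most abundant genes, leaving out the cells with fewest genes (24 OHCs and 50 cIHCs kept), cells with Xist or Y-linked reads only, thinned cells and fold thresholds of 1.5 and 4. Leaving out cells with supporting cell or glia markers at 50 CPM was added after seeing the data. The ratio step was tested on simulated data. Tools were Python 3.11.15, numpy 2.4.6, pandas 2.3.3, scipy 1.17.1, matplotlib 3.10.9, R 4.3.3 and edgeR 4.0.16 (TMM only).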

Additional observations from a re-analysis of the deposited data

How the results depend on the processing

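No paired analysis was possible because the replicate numbers only count cells within a group and the comparison comes from no test. The number of members at least 2-fold higher in cIHCs was 5, and on per-cell medians, where only Cabp2 has a value, it was 1 higher and 0 lower, with a median log2 ratio of 1.46. Of all genes that reached 10 CPM and have a value on that setting, 45.8% were higher and 9.78% lower. In cells with Xist only, 2 members were lower in place of 1, Cabp7 being the second, beside 44.4% higher and 17.0% lower of such genes. The median of 3.00 became 1.66 without each gene's highest cell, where 6 members keep a value, and 4.74 in cells with Y-linked reads only. Fewer members or cells enter each of these. TMM scaling (factors of 0.936 for OHCs and 1.07 for cIHCs) moved the median over the 10041 genes that reached 10 CPM by -0.19. The shares of these genes at least 2-fold higher and lower became 22.3% and 17.3%. Cabp2 and Necab2 kept their direction and stayed past 2-fold under every alternative that gave a value, while Cabp4 and Cabp7 each changed sign under 1. In cells with Xist the 4 OHCs limit the depth behind each bound. The group sums rest on an unknown number of animals, and the age and genotype of the groups cannot be told apart.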

Other observations

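The cells at the ends of the Cabp2 range were described by identity genes of OHCs and IHCs. The OHC with the lowest Cabp2, cell 3 at 194 CPM, had 2451 CPM of Slc26a5 and no Tbx2 read. It had 0.177 CPM of Slc17a8 and 716 CPM of Otof. The OHC with the highest Cabp2, cell 8 at 1768 CPM, had 1172 CPM of Slc26a5 and no Tbx2 read, but 206 CPM of Slc17a8 and 1267 CPM of Otof, where the median OHC had 0.136 and 493 CPM. The cIHC with the lowest Cabp2, cell 62 at 868 CPM, had 725 CPM of Tbx2, 1374 CPM of Slc17a8 (the vesicular glutamate transporter of IHCs) and 380.3 CPM of Otof. The cIHC with the highest Cabp2, cell 21 at 4741 CPM, had 134 CPM of Tbx2, 1634 CPM of Slc17a8 and 4220 CPM of Otof. Over all OHCs Cabp2 had a rho of -0.07 with Otof and -0.31 with Slc26a5. Over all cIHCs its rho was 0.52 with Otof and -0.09 with Slc17a8, so single end cells do not stand for their group.

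The single cells behind rare members were also looked at. The OHC with most Cabp7, cell 22, had 594 CPM of Slc17a8, 1533 CPM of Otof and 17896 CPM of Ocm (oncomodulin), beside 1854 CPM of Slc26a5 and no Tbx2 read. Cell 11, the only other OHC with 10 CPM or more of Cabp7 (129 CPM), differed from it. That cell had 12.2 CPM of Slc17a8, 162 CPM of Otof and 48737 CPM of Ocm. The cIHC with Cabp5, cell 57, had 10665 genes with reads, and the cIHC with most Hpca, cell 33, had 11719, the highest number of any cell.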
